A study of Mus musculus with 3 samples.

Results

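The nuclear receptor family was examined in chimera-derived mouse myoblasts through 47 receptor genes, taken from a fixed list of the family out of 35562 genes with summed transcript values. The libraries came from 3 lines of myoblasts (66, 67 and 72), which carried the Dmdmdx mutation, the Pax7-nGFP reporter and a CRISPR/Cas9 edit made to correct the mdx mutation. The lines came from sorted Pax7-nGFP+ cells of intraspecies mouse chimeras, were all edited, and form 1 group with n = 3, so each value below describes that group and no comparison between conditions was made. According to the study's methods, the cells descend from iPSCs made from male mouse embryonic fibroblasts and edited so that the mutated exon of Dmd is skipped. They were injected into host blastocysts with the alleles Pax7-Cre/ERT2 and Rosa26-lsl-DTA, whose own PAX7+ cells can be ablated with tamoxifen, and some chimeras received the drug and others did not. The labels do not say which chimera or treatment gave which line, nor whether the lines share a parental iPSC clone, and nothing labels a second culture of any line, so the spread between lines mixes biological and technical differences. With 3 lines, an exact sign-flip test cannot go below p = 0.25, and no p-value is given.

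Nuclear receptors are transcription factors with a zinc-finger DNA-binding domain and, in most members, a pocket that binds a small lipophilic ligand. Steroid receptors are held by chaperones until hormone binds, whereas receptors for thyroid hormone, retinoic acid, fatty acids and oxysterols sit on DNA as heterodimers with a retinoid X receptor (RXR) and exchange corepressors for coactivators when ligand arrives. Orphan receptors such as the COUP-TFs, the REV-ERBs and the NR4A proteins act without a classical hormone. In skeletal muscle the family is known for setting oxidative metabolism, fibre type, the molecular clock and atrophy.

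The libraries held 73274315, 66972426 and 70272367 estimated counts in lines 66, 67 and 72. All 10 myoblast markers (among them Pax7, Myod1 and Fgfr4) lay at 10 TPM or more in every line, TPM being the relative transcript level, an estimated count divided by transcript length and scaled to the same total in each library. Of the 8 differentiation markers, 7 did so too, and the list of 8 summed to 1035, 1542 and 1831 TPM in the respective lines. Among markers of other cell types, the endothelial list (Pecam1, Cdh5, Kdr, Tek and Emcn) reached 1 TPM in every line with 0 of 5 genes and summed to between 0.726 and 1.81 TPM. The immune list reached it with 1 of 6 (Cd68) and summed to between 3.26 and 4.76 TPM. In the fibroblast list, 3 of 8 genes (Col3a1, Col1a2 and Thy1) reached it, and Col3a1 alone had 145, 205 and 270 TPM, with a summed level between 157 and 311 TPM, while Lum and Dpt had no counts. Among 6 adipocyte genes only Cebpa reached 1 TPM, and the list summed to between 1.58 and 8.77 TPM, with Cidec and Lep at 0 counts. Of 8 pluripotency genes none reached 1 TPM, and 7 had 3 counts or fewer in every line.

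Of the 47 receptor genes, 44 had any TPM value above 0, and 22 (46.8%) reached 1 TPM in every line, against 51.9% of 21856 protein-coding genes. Only 11 (23.4%) reached 10 TPM in every line, against 36.3% of protein-coding genes. The receptors were therefore a family of moderate and low levels, with 43.2 TPM as the highest value of any member in any line and a median of 1.24 on the log2(TPM + 1) scale, compared with 1.60 for protein-coding genes. The family summed to 354, 373 and 372 TPM in the respective lines (366 ± 11.0, SD, n = 3). The 5 highest genes, namely Nr1h2, Esrra, Nr2f2, Nr2f6 and Rara, supplied 47.6% of this sum.

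**Figure D1:**
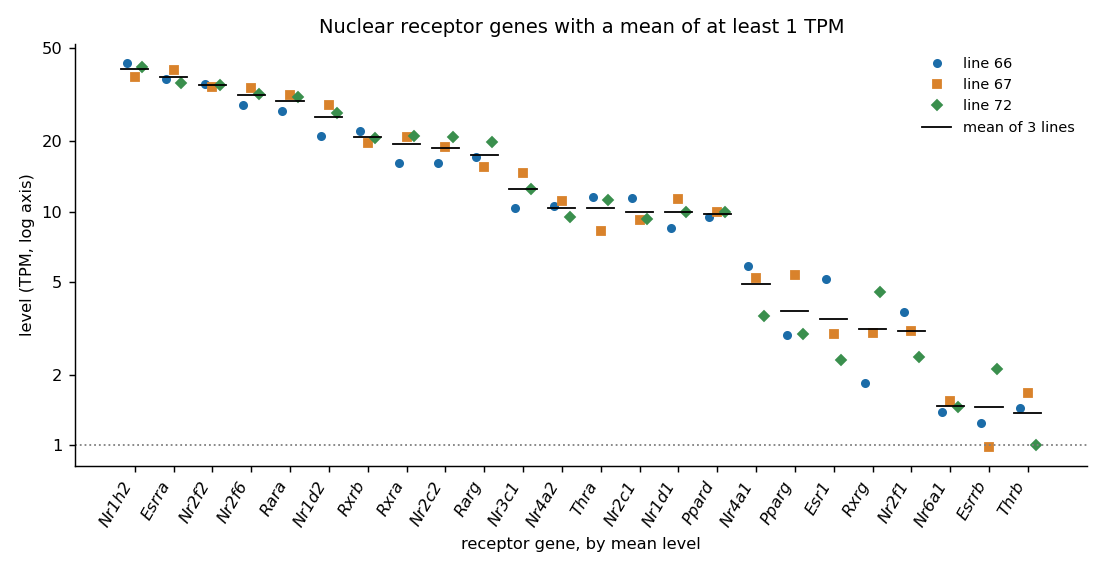
Level of each of the 24 receptor genes averaging 1 TPM or more, on a log axis, in lines 66, 67 and 72. Points are single libraries, black bars are means of the 3 lines and the dotted line marks 1 TPM. The means fall from 40.8 TPM (Nr1h2) to 9.79 TPM (Ppard), then drop to 4.87 TPM (Nr4a1). A further drop lies between Nr2f1 (3.07 TPM) and Nr6a1 (1.46 TPM), and the points spread more widely in the lower part.

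The order of the 24 genes averaging 1 TPM or more was only partly resolved. Among the 23 pairs of neighbours in that order, the ranges over the 3 lines did not overlap in 5 pairs, which were Esrra over Nr2f2, Nr2f2 over Nr2f6, Rarg over Nr3c1, Ppard over Nr4a1 and Nr2f1 over Nr6a1. The ranges overlapped in the other pairs, though Nr2f6 was above Rara, and Rara above Nr1d2, in each of the 3 lines. The gap between Ppard (9.79 TPM) and Nr4a1 (4.87 TPM) separated 16 genes above 5 TPM from 8 genes between 1 and 5 TPM. As shown further on, the order at the top also depended on short transcripts.

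The RXR genes encode the shared heterodimer partner. Rxrb (chr17:34031812-34038399, coordinates here and below from GENCODE M21 on GRCm38) had 22.1, 19.8 and 20.7 TPM in lines 66, 67 and 72, and Rxra (chr2:27676440-27762957) had 16.1, 20.9 and 21.2 TPM. Their ranges overlapped, so neither led on this scale. Rxrg, the isotype usually tied to skeletal muscle and brain, lay far lower at 1.84, 3.02 and 4.51 TPM, and its values did not overlap those of either paralog. Together the RXRs summed to 40.01, 43.72 and 46.34 TPM. The 15 genes of the subfamilies whose members pair with RXR, from the thyroid hormone receptors to CAR, summed to 115, 111 and 119 TPM.

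The retinoic acid receptors summed to 47.5 ± 3.21 TPM (SD, n = 3), or 13.0% of the family. Rara (chr11:98927818-98974942), the broadly used isotype, had 27.1 TPM in line 66, 31.5 TPM in line 67 and 30.9 TPM in line 72. For Rarg (chr15:102234938-102257517) the values were 17.1, 15.4 and 19.8 TPM. Every line thus had more Rara than Rarg. Rarb, itself a classical retinoic acid target, was near silent at 0.25, 0.32 and 0.19 TPM, that is 20, 29 and 23 counts.

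The LXR that senses oxysterols in most tissues, Nr1h2 (chr7:44549616-44553951), was the highest receptor by mean TPM over all transcripts, with 43.2, 37.7 and 41.4 TPM. Its paralog Nr1h3, known from liver and macrophages, had 0.34, 0.11 and 0.28 TPM from 22, 8 and 8 counts. The bile acid receptor Nr1h4 stayed at 0.51, 0.35 and 0.64 TPM, and Nr1h5 at or below 0.098 TPM. Nearly all LXR and FXR message therefore came from Nr1h2.

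Among the PPARs, the fatty acid sensors, Ppard (chr17:28232700-28301474) dominated with 9.47, 9.94 and 9.94 TPM, a highest-to-lowest fold of 1.05. Pparg, the receptor that drives fat cell formation, had 2.96 TPM in line 66, 5.33 TPM in line 67 and 2.98 TPM in line 72, below Ppard in every line. Ppara, a regulator of fatty acid oxidation in liver, had 0.19, 0.16 and 0.33 TPM. The thyroid hormone receptors were led by Thra (chr11:98740638-98769006) at 11.5, 8.29 and 11.2 TPM. For Thrb the values were 1.437, 1.677 and 0.9999 TPM, and the ranges of the pair did not overlap. The vitamin D receptor Vdr had only 45, 32 and 36 counts (0.28, 0.21 and 0.51 TPM).

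Of the steroid receptors, the glucocorticoid receptor Nr3c1 was the sole member with a substantial level, at 10.4, 14.6 and 12.5 TPM. The mineralocorticoid receptor Nr3c2 had 0.515, 0.804 and 1.04 TPM. Pgr, the progesterone receptor, was represented by 2 counts in line 72 and none in the other lines. Estrogen receptor alpha, Esr1 (chr10:4611593-5005614), had 5.12, 2.97 and 2.32 TPM, and Esr2 had 0.20, 0.20 and 0.43 TPM. Esr1 was above Esr2 in every line.

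The estrogen-related receptors are orphans that control mitochondrial genes. Esrra (chr19:6910977-6921813), the isotype coupled to PGC-1 coactivators, was second in the family by mean TPM over all transcripts, with 37.0, 40.2 and 35.6 TPM. Esrrb (chr12:86361117-86521628), best known from pluripotent cells, had 1.25, 0.98 and 2.12 TPM, and Esrrg, common in oxidative muscle, had 0.32, 0.29 and 0.58 TPM. Esrra thus supplied most of the ERR sum of 39.5 ± 1.76 TPM (SD, n = 3). All 3 lines showed this order of isotypes.

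The COUP-TFs, orphan receptors that mostly repress, summed to 69.3 ± 1.64 TPM (SD, n = 3), or 18.9% of the whole, the highest sum of a subfamily over all transcripts. That rank turned on other scales. Over transcripts of at least 1000 bases the COUP-TFs summed to 42.6 TPM against 45.5 TPM for the retinoic acid receptors, and over protein-coding transcripts to 37.6 against 46.7 TPM. Over protein-coding transcripts the RXRs were also higher by mean, at 38.8 TPM, though not in line 66. In CPM (estimated counts scaled to library total, not divided by length) the COUP-TFs summed to 73.7, 76.9 and 74.4 in the respective lines. There they had rank 4, below the RXRs (100.3, 114.1 and 121), the retinoic acid receptors (94.1, 98.97 and 103.9) and TR2 with TR4 (89.8, 92.75 and 95.7). Nr2f2 (chr7:70351944-70366735) had 35.25, 34.02 and 35.01 TPM, a fold of 1.04 that was the smallest of the 24 genes in TPM over all transcripts but became 1.09 in CPM and 1.14 over transcripts of at least 1000 bases. Nr2f6 (chr8:71374123-71381960) had 28.7, 33.8 and 31.9 TPM. The third paralog, Nr2f1, was lower at 3.72, 3.09 and 2.39 TPM, with no overlap with the others. The testicular receptors TR2 and TR4 were also clearly present. Nr2c2, which encodes TR4, had 16.2, 18.9 and 20.9 TPM, above Nr2c1 (TR2) in every line at 11.4, 9.21 and 9.27 TPM.

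The REV-ERBs repress clock genes in response to heme. Nr1d2 (chr14:18204054-18239127), encoding REV-ERB beta, had 21.04, 28.55 and 26.41 TPM, and Nr1d1 (chr11:98767932-98775333), encoding REV-ERB alpha, had 8.53, 11.3 and 9.95 TPM. Both were lowest in line 66 and highest in line 67, and the beta gene was the higher in every line. The RORs, which bind the same elements as activators, were low, with Rora at 0.80, 1.11 and 0.88 TPM and Rorb at 0.85, 0.35 and 0.43 TPM. Of the NR4A genes, immediate-early orphans induced by activity and stress, Nr4a2 led with 10.6, 11.1 and 9.47 TPM. Nr4a1 had 5.84, 5.20 and 3.58 TPM, whereas Nr4a3 had 24, 30 and 25 counts (0.091, 0.16 and 0.11 TPM).

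The 23 receptors with a mean below 1 TPM split into 15 with more than 3 counts in at least 1 line and 8 with 3 counts or fewer in every line. The 8 were Nr2e3, Nr5a1, Hnf4a, Hnf4g, Pgr, Nr1i2, Nr0b1 and Nr0b2, that is, receptors of retina, steroidogenic tissue, liver, intestine and reproductive tract. Nr1i2, Nr0b1 and Nr0b2 had 0 counts throughout, which at these depths allows up to 3 counts, or 0.0409, 0.0448 and 0.0427 CPM in lines 66, 67 and 72. These limits cover counting error only. The constitutive androstane receptor Nr1i3 had 9, 10 and 9 counts, and the neural receptor Nr2e1 1, 4 and 4. Nr5a2, which encodes LRH1 of liver and ovary, had 5, 1 and 2 counts. The germ cell nuclear factor Nr6a1 was the lowest steady member above these, with 1.39, 1.55 and 1.46 TPM.

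In 9 subfamilies, several members averaged 1 TPM or more. In 8 of these the leading paralog lay above all the others in every line (Thra, Rara, Ppard, Nr1d2, Nr2c2, Nr2f2, Esrra and Nr4a2), with ranges that did not overlap. The RXRs were the exception, since Rxrb and Rxra overlapped, which rested on line 66, without which Rxra lay above Rxrb. In CPM, which is not divided by length, Rxra was higher in every line, at 62.1, 76.7 and 81.4 against 35.6, 33.3 and 33.8. The lead of Nr2f2 did not hold for full-length receptor transcripts, where Nr2f2 (414 residues) had 5.67, 6.82 and 5.89 TPM and Nr2f6 (390 residues) 14.98, 14.83 and 15.96 TPM.

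Several receptor genes encode alternative proteins that differ in function, and the transcript estimates separate them where their sequence differs. For Thra, alternative splicing after a shared stretch of 1111 coding bases gives the hormone-binding receptor Thra1 (410 residues) or the form Thra2 (492 residues), whose different end does not bind hormone. The 15 last shared coding bases are given in lower case and the first 75 form-specific coding bases in capitals, because this junction is what tells the forms apart (spliced coding sequence of GENCODE M21, plus strand, chr11:98764392-98764481 for Thra1 and chr11:98764392-98768232 with an intron for Thra2).
Thra1: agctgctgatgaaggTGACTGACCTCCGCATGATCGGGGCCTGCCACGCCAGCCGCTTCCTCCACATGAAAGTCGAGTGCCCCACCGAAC
Thra2: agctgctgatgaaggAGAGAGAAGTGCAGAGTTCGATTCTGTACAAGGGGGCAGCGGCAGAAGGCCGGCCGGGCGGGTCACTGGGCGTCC

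Thra2 was the more abundant form in every line, with 4.705, 4.201 and 5.088 TPM against 3.70, 2.78 and 2.59 TPM for Thra1. The ratio of Thra1 to Thra2 was 0.786, 0.662 and 0.509 in the respective lines, and the ranges of the forms did not overlap. Of the 31-base words that only Thra2 holds within the gene, 18.3% also lie, reversed, in transcripts of Nr1d1, which is transcribed from the opposite strand of the same locus. The libraries keep strand, but how strand was treated in the quantification is not given in the sources used here, so reads of Nr1d1 in that stretch cannot be told apart from reads of Thra2. The share of Thra2 in the level of Thra was 45.7% ± 4.90 in TPM and 57.5% ± 4.43 in estimated counts (SD, n = 3).

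Rarg uses alternative promoters, so that its forms differ at the start of the protein and share 1191 coding bases. Shown are the last 90 coding bases particular to each form in capitals and the first 15 shared ones in lower case (minus strand, chr15:102241971-102252509 for Rarg1 and chr15:102241971-102246150 for Rarg2, both with an intron).
Rarg1: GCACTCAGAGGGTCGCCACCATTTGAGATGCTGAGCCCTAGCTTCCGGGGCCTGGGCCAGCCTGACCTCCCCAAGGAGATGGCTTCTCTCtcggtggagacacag
Rarg2: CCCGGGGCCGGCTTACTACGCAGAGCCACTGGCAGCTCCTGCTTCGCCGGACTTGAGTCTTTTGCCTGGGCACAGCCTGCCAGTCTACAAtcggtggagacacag

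Rarg2, the form whose promoter carries a retinoic acid response element, had 10.3, 7.41 and 11.6 TPM. Rarg1 had 5.88, 6.18 and 5.68 TPM and was below Rarg2 in every line. For Rara the balance lay with the first promoter, since Rara1 (462 residues, 4 transcripts) had 24.17, 26.19 and 28.66 TPM and Rara2 (459 residues), the retinoic acid-inducible form, had 2.89, 4.66 and 2.13 TPM. In both genes the ranges of the forms did not overlap.

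Pparg2, the form enriched in fat, starts upstream of the Pparg1 start codon and adds 90 coding bases. They are given in capitals, followed by the first shared bases in lower case (plus strand, chr6:115422111-115439862 with an intron), beside the start of Pparg1 (chr6:115439848-115439877), which has no coding base of its own.
Pparg2: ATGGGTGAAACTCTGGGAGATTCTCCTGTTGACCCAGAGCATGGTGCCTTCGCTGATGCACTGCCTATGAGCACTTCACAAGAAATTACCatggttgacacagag
Pparg1: atggttgacacagagatgccattctggccc

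Pparg2 was listed at 0 in line 66, with 131 estimated counts in line 67 and 75.2 in line 72. Pparg1 had 141, 146 and 119 estimated counts in the same lines. The estimate for Pparg2 rests on 126 words particular to it. A transcript of 497 bases with an incomplete coding part had 1.19, 1.25 and 0.312 TPM from 17.3, 16.2 and 4.37 counts. With it, Pparg was nearly equal in TPM in lines 66 and 72 although Pparg2 was not. On other scales Pparg was lower in line 66, with 2.16 against 2.82 CPM, and 1.77 against 2.67 TPM over transcripts of at least 1000 bases. Of the adipocyte markers, the regulator Cebpa had 8.58 TPM in line 66 against 2.49 and 1.39 TPM in lines 67 and 72, and Adipoq had 2, 0 and 2 counts, and the part of fat cells in the level of Pparg2 was not tested. For Thrb, Thrb2 (475 residues) had 0.38, 0.62 and 0.40 TPM and Thrb1 (461 residues) 0.38, 0.43 and 0.29 TPM, which overlapped, and only 0.600% of the words of Thrb1 are found in no other transcript of the gene.

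**Figure D2:**
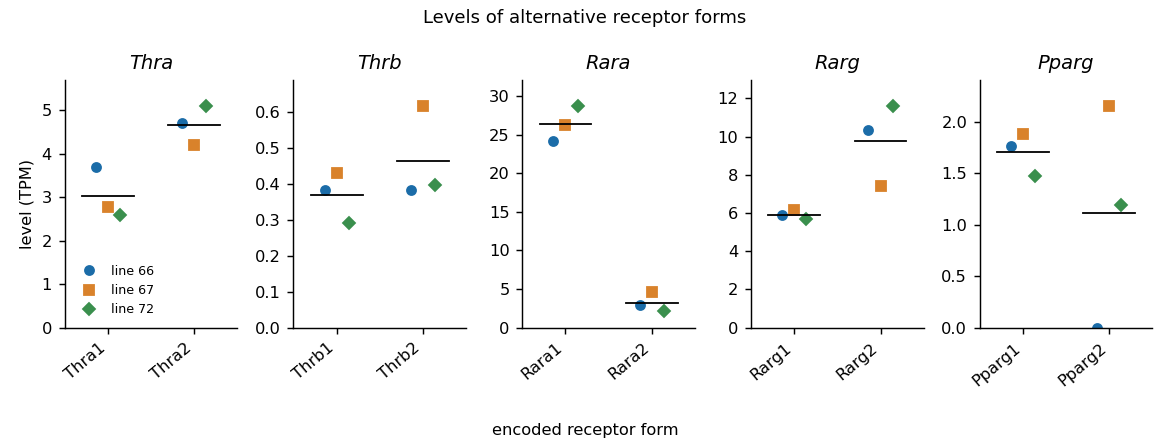
Level in TPM of the alternative forms of 5 receptor genes in lines 66, 67 and 72, each panel with its own axis from 0. Points are libraries and black bars are means of the 3 lines. Thra2 lies above Thra1, Rara1 above Rara2 and Rarg2 above Rarg1 in every line, while the forms of Thrb and Pparg overlap and Pparg2 is at 0 in line 66.

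The lines were compared by the ratio of the highest to the lowest TPM among the 24 genes averaging 1 TPM or more. A fold over 2 was found for 3 of them (12.5%), against 7.19% of all 12528 genes at such levels, and a fold over 1.5 for 7 (29.2%), against 19.7%. A departure of so few genes from the background was not read as a result. Without line 66 the count fell to 1 (Esrrb), without line 67 it was 2 (Rxrg and Esr1), and without line 72 it was 0. None of the 16 receptors averaging 5 TPM or more passed 1.5-fold, where 12.3% of 9953 genes at such levels did, and their largest fold was 1.40 (Nr3c1). All 7 genes over 1.5-fold lay between 1 and 5 TPM, where 47.9% of 2575 genes passed the same limit and 7 of 8 receptors did. The median biological coefficient of variation, the spread between lines beyond counting noise in an edgeR fit, was 0.152 for the receptors and 0.150 for all genes. The fitted trend for genes of like level had a median of 0.191 over the receptors, and 5 of the 24 lay above their trend value.

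**Figure D3:**
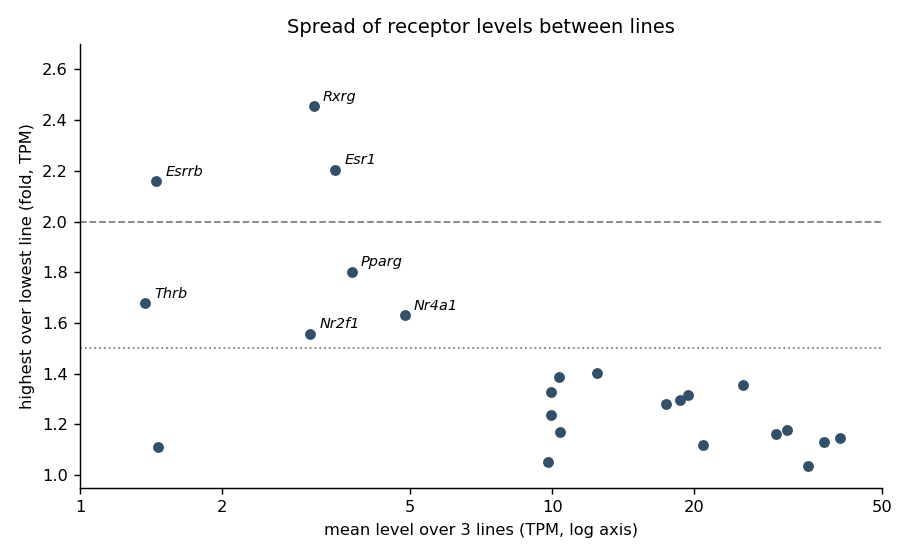
Ratio of the highest to the lowest line in TPM against the mean level in TPM (log axis) for the 24 receptor genes averaging 1 TPM or more. Each point is a gene, and dashed and dotted lines mark 2-fold and 1.5-fold. The named genes are the 7 over 1.5-fold, all below 5 TPM, of which Rxrg (2.45), Esr1 (2.204) and Esrrb (2.16) pass 2-fold.

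Rxrg differed by 2.45-fold, the widest in TPM, though Esr1 was wider with edgeR's TMM scaling (2.335 against 2.246) and with DESeq2's size factors (2.331 against 2.25), with 185, 273 and 410 counts in the respective lines. The 95% exact Poisson intervals of its CPM values, which cover counting error only, were 2.17 to 2.92, 3.61 to 4.59 and 5.28 to 6.43, and none overlapped. The myogenic regulator Myog had the same order (168, 222 and 310 TPM), as did 7 of the 8 differentiation markers, Tnnt3 being highest in line 67. Of its paralogs, Rxra also had this order, while Rxrb was highest in line 66. In the fibroblast list 2 of 8 genes had this order, Col3a1 (145, 205 and 270 TPM) and Col1a2 (7.47, 28.3 and 37.0 TPM), while Col1a1, Dcn and Pdgfra were highest in line 66. In the myoblast list 3 of 10 had it, namely Pax7, Fgfr4 (22.8, 28.5 and 42.6 TPM) and Vcam1 (53.3, 66.6 and 91.1 TPM), while Myod1 had the reverse order. The immune list had 3 of 6 in this order (Ptprc, Itgam and Lyz2, each below 1 TPM) and the endothelial list 1 of 5. None of the 6 adipocyte and 8 pluripotency genes had it. The share of all genes in this order was not counted. Whether the share of differentiating or other cells bears on the level of Rxrg was not tested, and in bulk RNA more cells of a kind and more RNA per cell cannot be told apart.

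**Figure D4:**
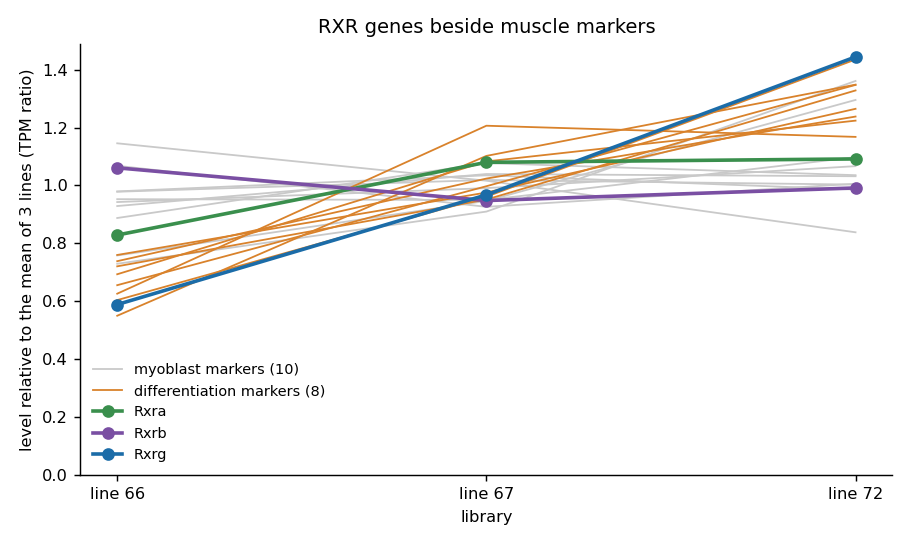
Level of Rxra, Rxrb and Rxrg (thick lines) in each library relative to the mean of the gene over the 3 lines, as a ratio of TPM values. Thin lines are 10 myoblast and 8 differentiation markers, and lines join the values of a gene across libraries, which have no order. Rxrg is at 1.84 TPM in line 66 and 4.51 TPM in line 72, and all 8 differentiation markers, like some myoblast markers, are also lower in line 66 than in line 72, while Rxrb stays close to its mean.

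Esr1 was 2.204-fold apart, with line 66 highest (1292 counts against 725 and 546). Genes of chromosome 10, where Esr1 lies, were shifted as a whole in line 66, by a median log2 ratio of 0.29 to the other lines over 427 genes. Relative to the chromosome median in each line, the fold of Esr1 was 1.78 and no longer over 2. Nr2c1, on the same chromosome and also highest in line 66, went from 1.24-fold to 1.05-fold. On chromosome 11 the shift in line 66 was 0.33 over 699 genes. Of the 3 receptors there, Thra was highest in line 66, and its fold went from 1.39 to 1.32 relative to the chromosome. Rara and Nr1d1 had their lowest values in line 66, and relative to the chromosome their folds were 1.48 and 1.69 in place of 1.16 and 1.33. Chromosome 6 had a smaller shift, with a median log2 ratio of 0.16 in line 72 over 398 genes. Relative to it, the fold of Pparg went from 1.80 to 1.97 and that of Nr2c2 from 1.29 to 1.14. Why these chromosomes were shifted was not tested.

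Esrrb was 2.16-fold apart, with 264, 194 and 437 counts in the respective lines, and line 72 stood above the others. Chromosome 12 was not shifted (log2 ratios within 0.028 of 0), and the fold relative to it was 2.14. Of the 8 pluripotency genes, Nanog had 31.2, 12.3 and 27.4 counts, and the 7 others, among them Zfp42, Utf1 and Lin28a, had at most 3 counts in any line. The transcript estimates divided Esrrb differently in each line, and the transcript that encodes 438 residues had 108, 0 and 317 estimated counts while the one that encodes 454 residues had 143, 186 and 104. Pparg, at 1.80-fold in TPM, was 2.04-fold apart in CPM and 2.28-fold over transcripts of at least 1000 bases.

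Because TPM divides by length, a short transcript with few reads can carry much of the level of a gene. In 9 of the 24 receptors (37.5%), transcripts under 1000 bases held over 20% of the summed TPM, close to the 40.6% of all genes, and in 0 of the 24 did they hold over 20% of the estimated counts. In Nr1h2, a retained-intron transcript of 237 bases had 25.5, 17.5 and 35.6 counts yet 7.65, 5.75 and 11.4 TPM. Over all its short transcripts, Nr1h2 had 45.4% of its TPM and 9.42% of its counts in them. In Nr2f6 the share was the highest of the 24 genes, with 50.1% of TPM in short transcripts, mainly 2 transcripts of 390 and 427 bases that are not protein coding. For Nr2f2 a longer retained-intron transcript of 2164 bases had 12.7, 14.2 and 15.3 TPM, or 40.5% of the gene, while the transcript of the full-length receptor (414 residues) held 17.7%.

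Without transcripts under 1000 bases, the top of the family was reordered. Rara came first at 29.6 ± 2.17 TPM, then Esrra at 27.6 ± 2.52, Nr2f2 at 24.7 ± 1.80, Nr1d2 at 23.5 ± 3.69 and Nr1h2 at 22.2 ± 2.02 TPM (SD, n = 3), and Nr2f6 fell from rank 4 to rank 10. The members above 5 TPM remained the same 16. Rara, Rxra and Nr3c1 kept 99.2%, 96.4% and 96.8% of their level, and Nr4a2 and Nr2c1 kept all of it. Over protein-coding transcripts Esrra came first at 30.4 TPM, and Nr1h2 had rank 3 at 20.9 TPM. In CPM, Nr2c2 (73.46) and Rxra (73.41) had the highest means, and Nr1h2 had rank 8 (36.6).

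**Figure D5:**
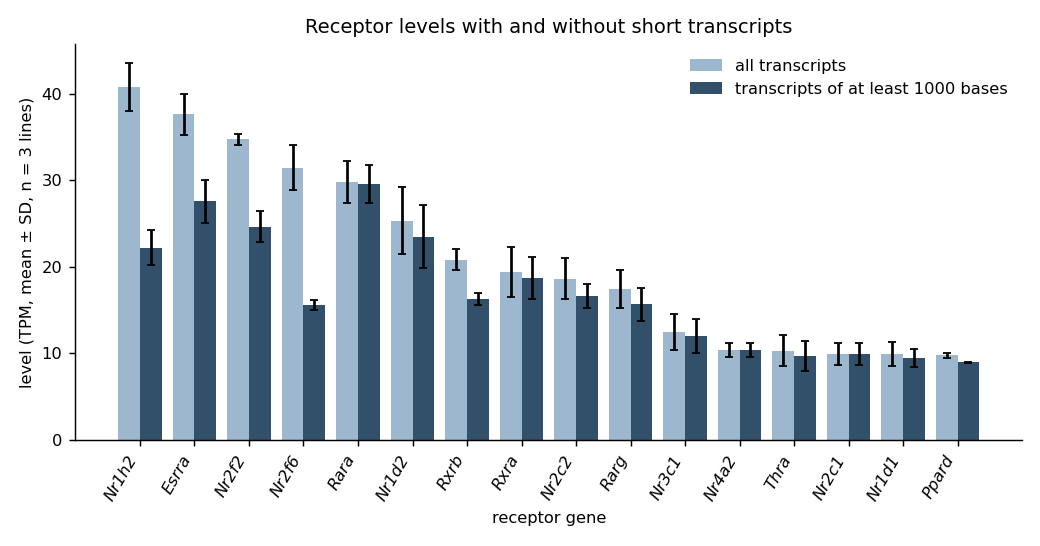
Mean level in TPM of the 16 receptors averaging 5 TPM or more, over all transcripts (light bars) and over transcripts of at least 1000 bases (dark bars), with error bars of 1 SD over the 3 lines. Nr1h2 drops from 40.8 to 22.2 TPM and Nr2f6 from 31.5 to 15.6 TPM, while Rara stays at 29.8 and 29.6 TPM.

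Little receptor sequence was shared with other genes on the same strand, at most 1.997% of the 31-base words of any of the 24 genes. On the opposite strand, 5 of the 24 shared more than 5%. Nr2f6 overlapped Ocel1 (47.5% of its words, with Ocel1 at 1.69, 0.99 and 1.19 TPM), and Nr2c2 overlapped Mrps25 (30.1%, with Mrps25 at 49.0, 54.5 and 62.45 TPM). Thra and Nr1d1 shared 239 words with each other, and Nr2f2 overlapped a transcript below 1 TPM. Among the low receptors, Rarb shared 32.1% with Top2b (175.5 to 206.5 TPM) and Nr1i3 shared 68.1% with Tomm40l (18.6 to 23.3 TPM). The levels of these receptors are uncertain to the extent that reads of the partner were assigned to them.

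The machinery through which receptors act was present throughout. Beside the list counts here and below, 51.9% of protein-coding genes reached 1 TPM in every line and 36.3% reached 10 TPM. All 18 coactivator genes had at least 1 TPM in every line and 14 had at least 10 TPM, from the arginine methyltransferase Prmt1 (766, 824 and 818 TPM) down to the acetyltransferase Kat2b (4.54, 7.25 and 9.99 TPM). Ppargc1a, which encodes PGC-1 alpha, was 2.21-fold apart, with 4.51 TPM in line 66 and 9.96 and 8.73 TPM in lines 67 and 72. The corepressors were similar, with 10 of 10 at 1 TPM and 8 at 10 TPM, from Ncor1 (148, 139 and 132 TPM) to Lcor (8.87, 8.71 and 7.58 TPM), and none over 2-fold apart. All 9 receptor chaperones exceeded 10 TPM, led by Hspa8 at 5465, 5278 and 5427 TPM, the lowest being Dnajb1 at 22.5, 20.1 and 24.2 TPM.

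Genes that make or clear the ligands were mostly low, where 51.9% of protein-coding genes reached 1 TPM in every line. In thyroid hormone handling, 2 of 7 reached 1 TPM in every line, and Dio2, the deiodinase that activates thyroid hormone inside cells, stood out with 84.4 TPM in line 66 and 34.3 and 31.7 TPM in the others, a fold of 2.66. The inactivating deiodinase Dio3 had 1 count in all, and Slco1c1 and Dio1 had none. In retinoid handling 3 of 12 reached 1 TPM in every line, with Cyp26c1 lowest (4, 12 and 12 counts), and the retinoic acid hydroxylase Cyp26b1 was 5.09-fold apart (0.49, 2.06 and 2.49 TPM). Of 8 steroid and vitamin D genes measured, 2 reached 1 TPM in every line, with Hsd17b4 at 51.9, 56.9 and 56.2 TPM as the highest and Cyp24a1 as the lowest (4, 4 and 1 counts). Fabp5 (140, 157 and 143 TPM) was the main fatty acid binding protein, and Fabp1 was lowest with 1, 0 and 2 counts.

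Known target genes were described as lists, without drawing the activity of a receptor from them. The ERR list was the highest, with 9 of 10 genes at 10 TPM in every line, from Atp5b (1855, 1791 and 1611 TPM) to Perm1, which had 4, 11 and 7 counts. Of the PPAR targets 11 of 12 reached 1 TPM in every line, with Pdk4 highest (164, 167 and 99.2 TPM), Ucp3 lowest (0, 2 and 5 counts), and Cd36 2.94-fold apart (1.89, 3.95 and 5.57 TPM). Of the glucocorticoid targets 10 of 12 did, from Errfi1 (343, 255.3 and 185 TPM) to Zbtb16 (1, 3 and 3 counts), and the phosphatase Dusp1 was 2.45-fold apart with line 66 highest (61.2, 25.0 and 32.5 TPM). The LXR list had 7 of 10, with Scd2 highest (181, 204.2 and 232 TPM), Abcg5 lowest (1, 1 and 0 counts), and Scd1 at 26.1, 35.7 and 17.7 TPM (2.02-fold).

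The retinoic acid list had 2 of 8 genes at 1 TPM in every line, with Cyp26a1 lowest (5, 9 and 6 counts). In the thyroid hormone list, 5 of 8 did, with Atp2a2 highest (181, 204.2 and 211 TPM) and Ucp3 again lowest. The muscle genes Atp2a1 (34.8, 58.2 and 79.9 TPM) and Myh7 (7.06, 15.5 and 19.9 TPM) were 2.30-fold and 2.82-fold apart, in the order of lines that 7 of the 8 differentiation markers had. Of 15 clock genes 13 reached 1 TPM in every line, from Tef (27.4, 40.1 and 39.1 TPM) to Npas2 (19, 33 and 21 counts), and Bhlhe40 was 2.29-fold apart (1.37, 2.86 and 3.14 TPM). Over the lists of coregulators, chaperones, binding proteins, ligand handling, targets and clock genes, 11 of 102 genes averaging 1 TPM or more (10.8%) were over 2-fold apart, against the 7.19% of all genes, and without line 66 the count was 3. For Kat2b and Scd1 this held in TPM only, since their CPM values differed by 1.15-fold and 1.45-fold.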

How the data were processed

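Values for 3 stranded, poly-A-enriched RNA-seq libraries of edited myoblasts were used, with the line as the replicate. The authors deposited an estimated count for each of 121798 transcripts, not normalized, and a TPM value per transcript. The submitters' processing notes name bcl2fastq 2.20, fastp 0.20, kallisto 0.46.1 and the build GRCm39. The annotation and strand setting are not given in the sources used here. Transcript identifiers were matched to GENCODE M21 (GRCm38), which held 120686 (99.1%), and deposited TPM and estimated counts were summed per gene. The 1112 unmatched transcripts (0.493% to 0.535% of counts) were left out. Depth was between 66972426 and 73274315 counts, and 3 counts were taken as the limit for a count of 0.

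Levels were given per line, with mean ± SD. Fold is the highest over the lowest line. Coefficients of variation came from an intercept-only edgeR fit to rounded counts, which was tested on simulated data. Chromosome shifts are medians over genes averaging 10 TPM or more. The members and lists were chosen with earlier results of these data known. All members were named. Per-line values, for the lowest genes as estimated counts, were given for members averaging 5 TPM or more, those over 2-fold apart and their paralogs, and for the highest, lowest and over 2-fold genes of each list. Other genes named, such as Myog and Adipoq, were chosen after their values were seen. Sts was not analysed here. Some genes of the retinoid lists that this rule would name are not reported here. Tools were Python 3.11.15, pandas 2.3.3, R 4.3.3, edgeR 4.0.16 and DESeq2 1.42.0.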

Additional observations from a re-analysis of the deposited data

How the results depend on the processing

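Across the alternatives, the number of receptors at 1 TPM in every line stayed between 16 (at a limit of 5 TPM) and 27 (CPM in place of TPM), with 22 to 23 on leaving out a line. The median receptor level was 2.01 in CPM, 0.53 with a pseudocount of 0.1, 0.91 with transcripts of at least 1000 bases, and 1.08 to 1.21 on leaving out a line. The summed level was 683 in CPM, 288 TPM with protein-coding transcripts and 294 TPM with transcripts of at least 1000 bases. Receptors over 2-fold apart numbered 0 at a mean of at least 10 TPM, 17 with every detected gene, 7 at 1.5-fold, and 0 to 2 on leaving out a line. Without line 66 this was Esrrb alone, without line 67 it was Rxrg and Esr1, and without line 72 there was none. Pparg passed 2-fold in CPM, with edgeR's TMM scaling, with DESeq2's size factors and with long transcripts, and Esr1 did not pass once centred by chromosome. The count of receptors with over 20% of their level in short transcripts was 0 in estimated counts. The median SD of log2 TPM over receptors was 0.196, and 0.127 to 0.165 on leaving out a line. Pathway genes over 2-fold apart numbered 3 to 8 on leaving out a line, with 3 without line 66 and 7 without line 72. Subfamilies whose leading paralog lay above the others numbered 8, with 8 to 9 on leaving out a line, 10 in CPM, which is not divided by length, and 7 with long transcripts. The alternatives with long transcripts, those for subfamilies, pathway genes and spread, for paralogs the one in CPM, and for the fold the one in CPM and the one with protein-coding transcripts were chosen after seeing the data. No paired analysis was possible because there is 1 group. No test separates the lines, since each has 1 library.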
